A study of Mus musculus with 6 samples.

Results

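Endothelial cells line blood and lymphatic vessels, and 10 genes that mark them were followed here in the tooth germ and oral tissue of the embryonic mouse jaw. The genes are the receptors Tek, Tie1, Kdr and Flt1, the surface and junction genes Pecam1, Emcn, Eng and Esam, and the transcription factors Sox17 and Sox18. They were chosen by name as endothelial markers, not by a threshold on measured values, but with earlier results of these data known. All 10 were on the array, among 19057 genes with a probe of a single symbol. Their 15 probes were used, and the brightest probe of each gene is meant unless another is named.

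RNA came from embryos of the CD-1 stock at embryonic day 13.5, when the lower molar is a bud, and was measured on Illumina bead arrays. No allele or treatment was given for any embryo. There were 3 libraries titled tooth germ and 3 titled oral tissue, each a pool of tissue over several mice, and a tooth germ and an oral tissue library of the same number share a litter. The source name and tissue fields of every library name the other tissue than its title does. Groups are named by title throughout, and the sign of every difference turns if those other fields are right. Msx1, a homeobox gene of dental mesenchyme, read 12.67, 12.66 and 12.36 in the libraries titled tooth germ and 10.78, 11.41 and 11.09 in those titled oral tissue. Acta1, the actin of skeletal muscle, read 11.13, 10.54 and 10.71 in titled tooth germ and 13.04, 12.27 and 12.90 in titled oral tissue. Shh, the hedgehog ligand of dental epithelium, differed by 0.78 and the muscle factor Myod1 by -1.47 (log2 differences, titled tooth germ minus titled oral tissue). Values are signals on a log2 scale. The median of all probe values was 7.01. With 3 arrays per group, precision is limited throughout.

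Vessels grow under the control of receptor kinases on the endothelial surface. Kdr (VEGFR2) carries most of the growth signal of VEGF, and Flt1 (VEGFR1) binds the same ligand tightly and acts largely as a decoy. Tek (Tie2) binds the angiopoietins, which steady or loosen vessels, and Tie1 is a relative of Tek that modulates it. Eng, endoglin, is a co-receptor for BMP ligands of the TGF-beta family, and ETS, GATA and SOX factors switch many endothelial genes on. In the jaw, vessels run through the mesenchyme beside the tooth bud, while the epithelium of the bud holds none.

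Tek was lower in the libraries titled tooth germ, and the other 9 genes did not pass the test. All 10 differences were below 0, from -0.33 for Tek to -0.01 for Kdr, with a median of -0.16 (median of all genes 0.003). Of the 10 genes, 1 was called lower, where a call is an adjusted p under 0.05 from limma over all genes, and 0 were called higher. Of all genes 3.42% were called lower and 2.39% higher. At an unadjusted p under 0.05 the count was 4 of the 10, all lower, and of all genes 8.86% were lower and 8.25% higher by that rule. With litter as a block 2 were called lower, Tek and Emcn, against a background of 5.02%. The bulk arrays cannot tell fewer endothelial cells from less RNA per cell.

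The start region of 6 of the 10 genes was in the RefSeq promoter table (GRCm38.p6), which holds 250 bases before and 50 bases after a gene's start. The table is not complete. 3 regions are shown 5′ to 3′ on the gene's strand: those of Tek and Emcn, which had the largest differences, and that of Tie1, the relative of Tek. Capitals mark GGAA, the core of ETS factor sites, or TTCC, the same letters on the other strand.
Tek, chr4:94739039-94739338, plus strand: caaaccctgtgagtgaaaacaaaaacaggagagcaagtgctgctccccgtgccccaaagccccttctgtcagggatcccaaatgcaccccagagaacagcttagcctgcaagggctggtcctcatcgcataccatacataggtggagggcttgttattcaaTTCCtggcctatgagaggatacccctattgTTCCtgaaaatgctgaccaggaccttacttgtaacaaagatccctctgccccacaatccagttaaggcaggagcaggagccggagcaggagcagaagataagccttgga
Emcn, chr3:137340828-137341127, plus strand: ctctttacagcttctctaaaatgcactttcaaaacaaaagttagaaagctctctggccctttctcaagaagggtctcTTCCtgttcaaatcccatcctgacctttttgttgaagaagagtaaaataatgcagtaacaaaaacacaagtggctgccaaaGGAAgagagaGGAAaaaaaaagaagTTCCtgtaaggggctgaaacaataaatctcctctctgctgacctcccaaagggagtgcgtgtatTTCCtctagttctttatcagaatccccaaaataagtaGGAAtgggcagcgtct
Tie1, chr4:118489800-118490099, minus strand: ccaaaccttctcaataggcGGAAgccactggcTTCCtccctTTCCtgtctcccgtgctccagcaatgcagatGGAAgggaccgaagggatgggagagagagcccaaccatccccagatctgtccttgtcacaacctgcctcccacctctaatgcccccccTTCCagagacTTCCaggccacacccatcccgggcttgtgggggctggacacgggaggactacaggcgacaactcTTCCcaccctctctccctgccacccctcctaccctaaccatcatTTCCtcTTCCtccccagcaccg
GGAA or TTCC occurred 2 times in the Tek region, 6 times in Emcn and 9 times in Tie1. In the other regions it occurred 5 times in Kdr, 4 times in Flt1 and 4 times in Eng. Of 32841 regions of the same length, 96% held it, with a median of 3 matches. GATA or TATC, the letters that GATA factors bind, occurred 2 times in Tek, 1 time in Emcn and 1 time in Kdr, and was not found in the windows of Tie1, Flt1 and Eng. It was in 57.9% of all regions. ACAAT or ATTGT, a core bound by SOX factors, occurred 2 times in Tek and 1 time in Emcn, with no match in the windows of Tie1, Kdr, Flt1 and Eng, and was in 31% of all regions. Both strands were searched and each motif was counted on its own, also where matches share bases. A match describes letters and is no evidence of binding.

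The angiopoietin receptor Tek read 8.68, 8.75 and 8.68 in titled tooth germ, against 8.97, 9.00 and 9.14 in titled oral tissue. Every titled tooth germ library lay below every titled oral tissue library, and the difference was below 0 in all 3 litters (-0.28, -0.25 and -0.47). The log2 difference was -0.33 (SE 0.078, 95% interval -0.50 to -0.16, adjusted p = 0.0268), or 1.26-fold higher in titled oral tissue. With litter as a block the adjusted p was 0.0131. The call was lost without any single library other than oral tissue library 1 (differences from -0.36 to -0.28, adjusted p from 0.0526 to 0.119), and also without both libraries of any litter (adjusted p from 0.0876 to 0.18).

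Tie1, which pairs with Tek on the cell surface, read 7.61, 7.59 and 7.60 in titled tooth germ, against 7.54, 7.63 and 7.76 in titled oral tissue. The titled tooth germ values sat within the range of the titled oral tissue values. Its difference of -0.04 (SE 0.068, 95% interval -0.19 to 0.11, adjusted p = 0.836) turned to 0.02 without oral tissue library 3.

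Kdr, the main VEGF receptor, read 6.97, 6.91 and 6.99 in titled tooth germ, against 6.90, 7.00 and 6.99 in titled oral tissue. These values lie below the median of all probe values, and Kdr was the 1 gene of the 10 with a mean there. A further Kdr probe lay lower still, at 6.90, 6.86 and 6.90 in titled tooth germ and 6.91, 6.89 and 6.83 in titled oral tissue. Without detection p-values, which were not part of the values analysed, neither probe could be placed above or below background. The difference was -0.01 (95% interval -0.09 to 0.08, adjusted p = 0.959), and its direction turned under some alternatives.

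Flt1, the VEGF decoy receptor, read 8.98, 8.71 and 8.66 in titled tooth germ, against 8.97, 8.97 and 8.92 in titled oral tissue. Litter 1 gave almost the same value in both tissues (difference 0.01), while litters 2 and 3 differed by -0.26 and -0.27. The groups overlapped through tooth germ library 1, and the difference of -0.17 was not called (SE 0.092, 95% interval -0.37 to 0.03, adjusted p = 0.391). Without tooth germ library 1 it was -0.27. A dimmer Flt1 probe read from 6.82 to 6.86 in titled tooth germ and from 6.80 to 6.87 in titled oral tissue, with a difference of 0.00.

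**Figure D1:**
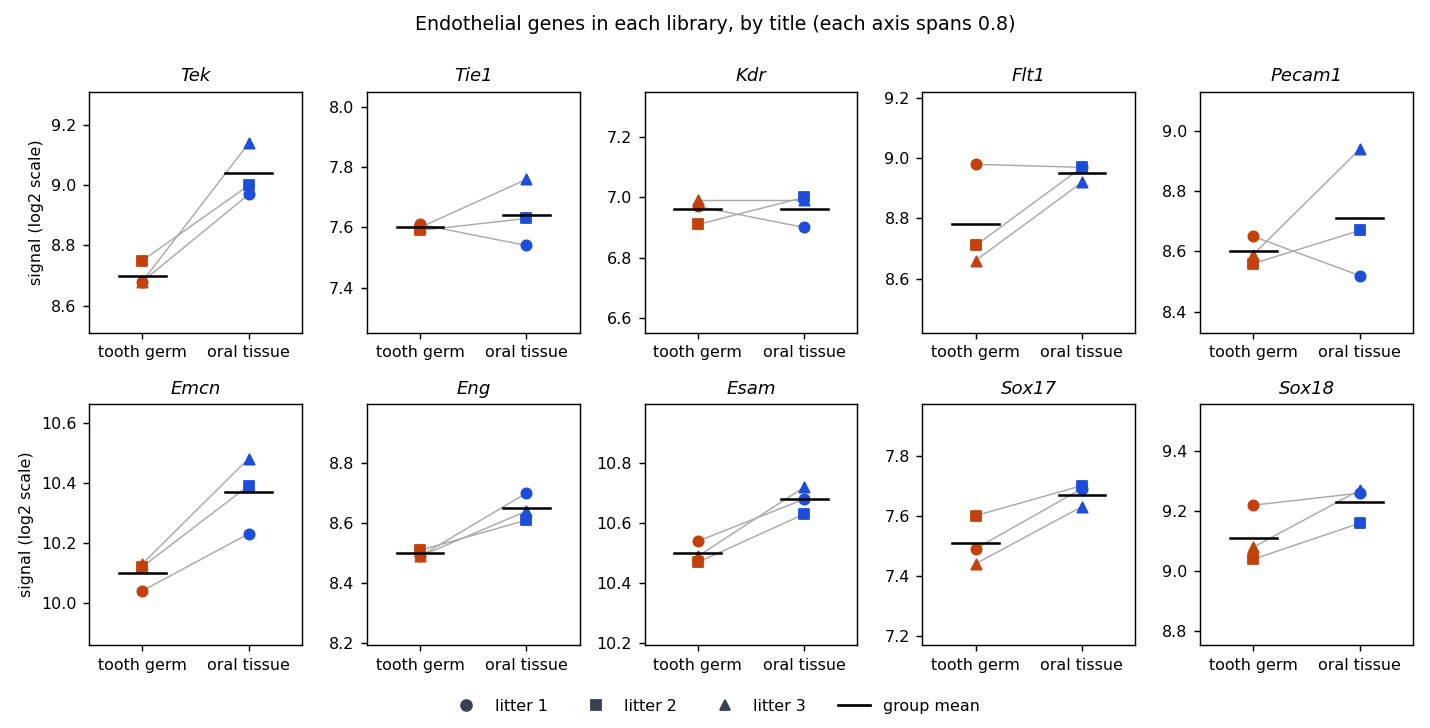
Signal of each of the 10 endothelial genes on the deposited log2 scale (y axis, each spanning 0.8), in the libraries titled tooth germ (left, orange) and titled oral tissue (right, blue). Marker shapes and joining lines show the 3 litters and black bars the group means (n = 3). The groups do not overlap for Tek, Emcn, Eng, Esam and Sox17.

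Pecam1 (CD31), an adhesion molecule of endothelial junctions that leukocytes and platelets also carry, read 8.65, 8.56 and 8.59 in titled tooth germ, against 8.52, 8.67 and 8.94 in titled oral tissue. The 3 litters differed by 0.13, -0.11 and -0.35, so they did not share a direction. The difference of -0.11 (SE 0.10, 95% interval -0.33 to 0.11, adjusted p = 0.649) became 0.00 without oral tissue library 3. A second bright Pecam1 probe read 8.20, 8.26 and 8.21 in titled tooth germ and 8.27, 8.35 and 8.39 in titled oral tissue. There the groups did not overlap, and the difference was -0.11 (95% interval -0.25 to 0.04, adjusted p = 0.53 over all probes). The dimmest Pecam1 probe differed by -0.01.

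Emcn, a sialomucin of veins and capillaries, had the next largest difference after Tek. It read 10.04, 10.12 and 10.13 in titled tooth germ, against 10.23, 10.39 and 10.48 in titled oral tissue. No values overlapped and the litters differed by -0.19, -0.26 and -0.36. The log2 difference was -0.27 (SE 0.086, 95% interval -0.46 to -0.08), with an adjusted p = 0.105, and an adjusted p = 0.0377 with litter as a block. Titled oral tissue was 1.21-fold higher.

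Eng, the endoglin co-receptor, read 8.49, 8.51 and 8.49 in titled tooth germ, against 8.70, 8.61 and 8.64 in titled oral tissue. The titled tooth germ values were nearly alike, and all lay below the lowest titled oral tissue value. The difference of -0.15 was not called (SE 0.070, adjusted p = 0.299). Esam, an adhesion molecule of endothelial tight junctions, read 10.54, 10.47 and 10.49 in titled tooth germ, against 10.68, 10.63 and 10.72 in titled oral tissue. Its groups did not overlap either, and its difference of -0.18 was not called (SE 0.074, 95% interval -0.34 to -0.01, adjusted p = 0.248).

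The transcription factors Sox17 and Sox18 belong to the SoxF group, which acts in arterial and lymphatic fate. Sox17 read 7.49, 7.60 and 7.44 in titled tooth germ, against 7.69, 7.70 and 7.63 in titled oral tissue. The groups were separated by a narrow gap, with a difference of -0.16 (SE 0.064, 95% interval -0.30 to -0.02, adjusted p = 0.197). A dimmer Sox17 probe differed by -0.07, and there the groups overlapped. Sox18 read 9.22, 9.04 and 9.08 in titled tooth germ, against 9.26, 9.16 and 9.27 in titled oral tissue. Tooth germ library 1 lay above oral tissue library 2, so these groups overlapped, and the difference was -0.11 (SE 0.081, 95% interval -0.29 to 0.06, adjusted p = 0.536). Sox7, the remaining SoxF gene, differed by -0.17 and was not called (adjusted p = 0.441).

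**Figure D2:**
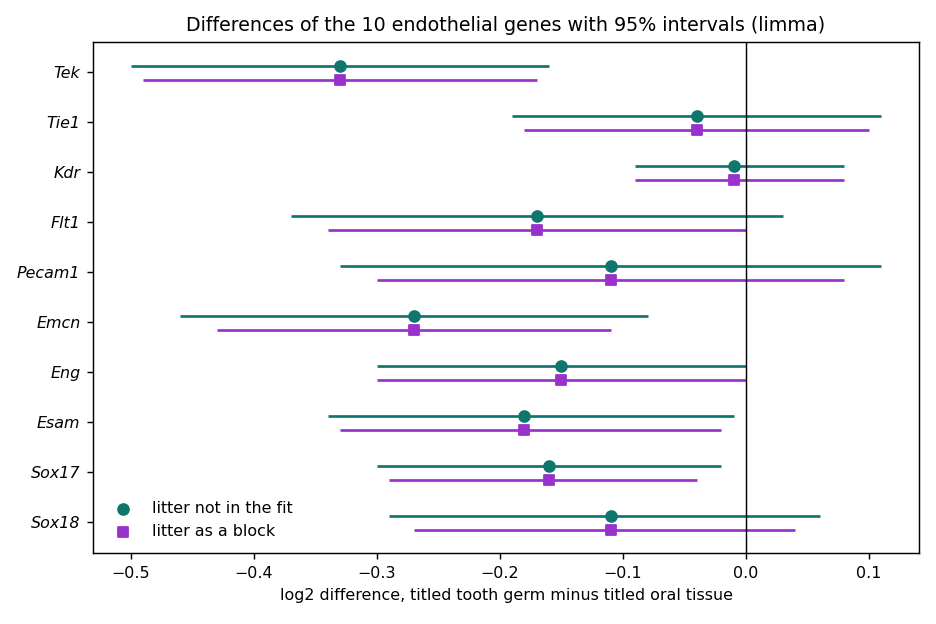
Log2 difference of each endothelial gene, titled tooth germ minus titled oral tissue (x axis), with 95% intervals from limma, without litter in the fit (green circles) and with litter as a block (purple squares). Points lie from -0.33 for Tek to -0.01 for Kdr, and both intervals of Tek, Emcn, Esam and Sox17 end below 0.

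Across the set, the groups did not overlap for 5 of the 10 genes, each lower in titled tooth germ, and for 0 in the other direction. Of all genes 11.2% were separated in this way with titled tooth germ lower and 11.9% with it higher. Among the 12150 genes at or above the median of all probe values, where 9 of the 10 lie, 13.7% were separated with titled tooth germ lower and 5.19% were called lower. The difference was below 0 in all 3 litters for 6 of the 10, against 19.8% of all genes and 22.9% of these brighter genes. Differences below 0 in general made up 48.2% of all genes and 46.2% of the brighter ones. The median over the 10 genes was -0.09, -0.12 and -0.21 in litters 1, 2 and 3. Without both libraries of litter 1, which leaves 2 arrays against 2, the groups did not overlap for 9 of the 10. Of all genes 20.2% were separated in that direction. Without litter 2 the groups did not overlap for 6 of the 10 (20.5% of all genes), and without litter 3 for 5 (22.4%).

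Libraries of the same tissue also differed among themselves. The mean deviation of the 10 genes from their own means was -0.04, -0.09 and -0.10 in tooth germ libraries 1, 2 and 3, against 0.03, 0.06 and 0.14 in oral tissue libraries 1, 2 and 3. Oral tissue library 3 held the highest value of all 6 libraries for 6 of the 10 genes. The lowest value was in a titled tooth germ library for 7, and for Tie1, Kdr and Pecam1 it was in oral tissue library 1. Titled tooth germ had the smaller SD for 7 of the 10.

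Genes outside the set that followed its mean course most closely were sought among 4759 genes above the upper quartile of all gene means. Likeness was the root mean square difference between a gene's deviations from its own mean and the mean deviation of the 10 genes, over 6 arrays. The 6 nearest were Socs5 (0.0256), Otud7b (0.0257), Ranbp10 (0.0265), Cpsf7 (0.0298), 1700123O20Rik (0.0312) and Bcl2l13 (0.0325), and none of these 6 was called by limma (adjusted p from 0.318 to 0.544). This measure counts the size of deviations as well as their course. Within the set, Esam lay nearest to the mean deviation (0.0289). Tek, which had the largest difference of the 10, lay farthest (0.0983), and its place need not mean a different course.

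Counts in this and the following vascular lists stand against 3.42% of all genes called lower and 2.39% called higher. With litter as a block 5.02% of all genes were called lower. Among the partners of the Tie, VEGF and endoglin receptors, 2 of 16 were lower, 1 was higher and 13 were not called, with a median of 0.00. Nrp1, a co-receptor for VEGF and for semaphorins that axons and mesenchyme also carry, read 10.25, 10.25 and 10.29 in titled tooth germ, against 11.38, 11.12 and 11.06 in titled oral tissue. The groups were far apart (log2 difference -0.92, SE 0.091, adjusted p = 9.26e-05), and the other probes of Nrp1 differed by -0.84 and -0.69. Ptprb, the endothelial phosphatase VE-PTP that acts on Tek, read 7.55, 7.57 and 7.44 in titled tooth germ, against 7.80, 7.75 and 7.89 in titled oral tissue. It was lower by a log2 difference of -0.29 (SE 0.067, adjusted p = 0.0232), and 9 of 21 alternatives did not call it. Pgf, a ligand of Flt1, was higher in titled tooth germ, at 7.50, 7.52 and 7.51 against 7.19, 7.32 and 7.23 in titled oral tissue (log2 difference 0.26, SE 0.053, adjusted p = 0.0122). Its call was lost in 5 of the 21.

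The angiopoietins and the VEGF genes Vegfa, Vegfb and Vegfc did not pass the test. Angpt1, the ligand that activates Tek, read 8.30, 8.19 and 8.30 in titled tooth germ and 8.13, 8.34 and 8.03 in titled oral tissue (log2 difference 0.09, adjusted p = 0.668). Angpt2, its context-dependent antagonist, read 7.66, 7.64 and 7.60 in titled tooth germ and 7.68, 7.46 and 8.05 in titled oral tissue, where library 3 stood high (log2 difference -0.10, adjusted p = 0.76). Vegfa differed by -0.12 (adjusted p = 0.587), Vegfb by 0.17 (adjusted p = 0.402) and Vegfc by 0.03 (adjusted p = 0.906). Flt4, the VEGF receptor of lymphatic vessels, differed by -0.08 and Acvrl1, the receptor kinase that works with Eng, by 0.01. The signals of Flt4 and Acvrl1 lay near the median of all probes.

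Of 22 other endothelial genes, 2 were lower, 0 higher and 20 were not called, and 16 of the 22 differences were below 0 (median -0.14, background of differences below 0 48.2%). Vwf, the clotting factor stored by endothelium and platelets, read 7.69, 7.84 and 7.83 in titled tooth germ, against 8.27, 8.48 and 8.51 in titled oral tissue (log2 difference -0.63, SE 0.083, adjusted p = 6.79e-04). Cd34, a sialomucin of endothelium and of blood and connective tissue progenitors, read 7.90, 7.91 and 7.73 in titled tooth germ, against 8.31, 8.26 and 8.13 in titled oral tissue (log2 difference -0.39, adjusted p = 0.0124). Neither gene had overlapping groups, and a dim Vwf probe differed by -0.03. Cdh5, the VE-cadherin of endothelial junctions, differed by -0.18 (adjusted p = 0.267), the tight junction gene Cldn5 by -0.21 (adjusted p = 0.397) and the endothelial guidance receptor Robo4 by -0.27 (adjusted p = 0.0728, which the litter block took to 0.0454). Of 11 endothelial transcription factors 1 was lower and 10 were not called (median -0.06). That gene was Gata2, which blood progenitors, neurons and other tissues also use, at 7.59, 7.67 and 7.61 in titled tooth germ against 8.37, 8.18 and 7.91 in titled oral tissue (log2 difference -0.53, adjusted p = 0.00793).

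The widest differences between vascular genes were in the arterial and mural lists, and they ran both ways. Of 7 arterial genes 2 were lower, 1 was higher and 4 were not called (median -0.01). Gja5, a connexin gene of arterial endothelium, read 8.83, 8.85 and 8.85 in titled tooth germ, against 9.89, 9.97 and 10.02 in titled oral tissue. The groups were more than a log2 unit apart (-1.12, SE 0.075, adjusted p = 1.42e-05), and of the other Gja5 probes a pair differed by -1.13 and -0.83 and a dimmer pair by -0.02 and 0.03. Gja4, a further arterial connexin, had a log2 difference of -0.38 (adjusted p = 0.0311), which 8 of 21 alternatives did not call. Hey1, a Notch target of arteries and of many other tissues, was higher by 0.43 (adjusted p = 0.0153), and 5 of 21 alternatives did not call it. The Notch ligand Dll4 differed by 0.00 at a signal near the median of all probes, and Nos3, the endothelial nitric oxide synthase, differed by 0.06.

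Of 6 genes of veins and lymphatic vessels 3 were lower and 3 were not called, and 5 were lower with litter as a block (median -0.30). Lyve1, a hyaluronan receptor of lymphatic endothelium and of some macrophages, read 7.19, 7.35 and 7.12 in titled tooth germ, against 7.95, 7.59 and 7.83 in titled oral tissue (log2 difference -0.56, SE 0.090, adjusted p = 0.00251). Prox1, the lymphatic fate factor, which neurons and muscle also express, was lower, with a log2 difference of -0.38 (adjusted p = 0.00604) at its brighter probe and -0.07 at a dim one. The vein factor Nr2f2, broadly made in mesenchyme, was lower at its brightest probe, with a log2 difference of -0.33 (adjusted p = 0.0303). Its other probes differed by -0.20, -0.18 and 0.01 and were not called, and 9 of 21 alternatives did not call the gene.

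Of 11 genes of pericytes and vascular smooth muscle 2 were lower, 1 was higher and 8 were not called (median -0.02). With litter as a block 3 were lower, the added gene being Abcc9, a potassium channel subunit of pericytes (-0.28, adjusted p = 0.035 with the block and 0.0763 without it). Rgs5, a signalling regulator of pericytes, read 8.24, 8.93 and 8.62 in titled tooth germ, against 7.34, 7.46 and 7.62 in titled oral tissue (log2 difference 1.12, SE 0.14, adjusted p = 5.5e-04). Every titled tooth germ library exceeded every titled oral tissue library, whereas the pericyte receptor Pdgfrb differed by 0.22 (adjusted p = 0.158) and Cspg4 by 0.05 (adjusted p = 0.806). Acta2, the smooth muscle actin, which embryonic skeletal muscle also makes, was lower, with a log2 difference of -1.49 (adjusted p = 1.56e-05). Of its other probes, the brighter ones differed by -1.55, -1.68 and -1.55 and the dim ones by 0.00 and 0.03. The smooth muscle myosin Myh11 was lower too, at -0.21 (adjusted p = 0.0129), and a dimmer probe of it differed by 0.02. With the mean of its probes Myh11 differed by -0.10 (adjusted p = 0.151), and 6 of 21 alternatives did not call it. Of the skeletal muscle genes 9 of 10 were lower (median -1.88), and the part of muscle in the Acta2 difference was not tested.

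**Figure D3:**
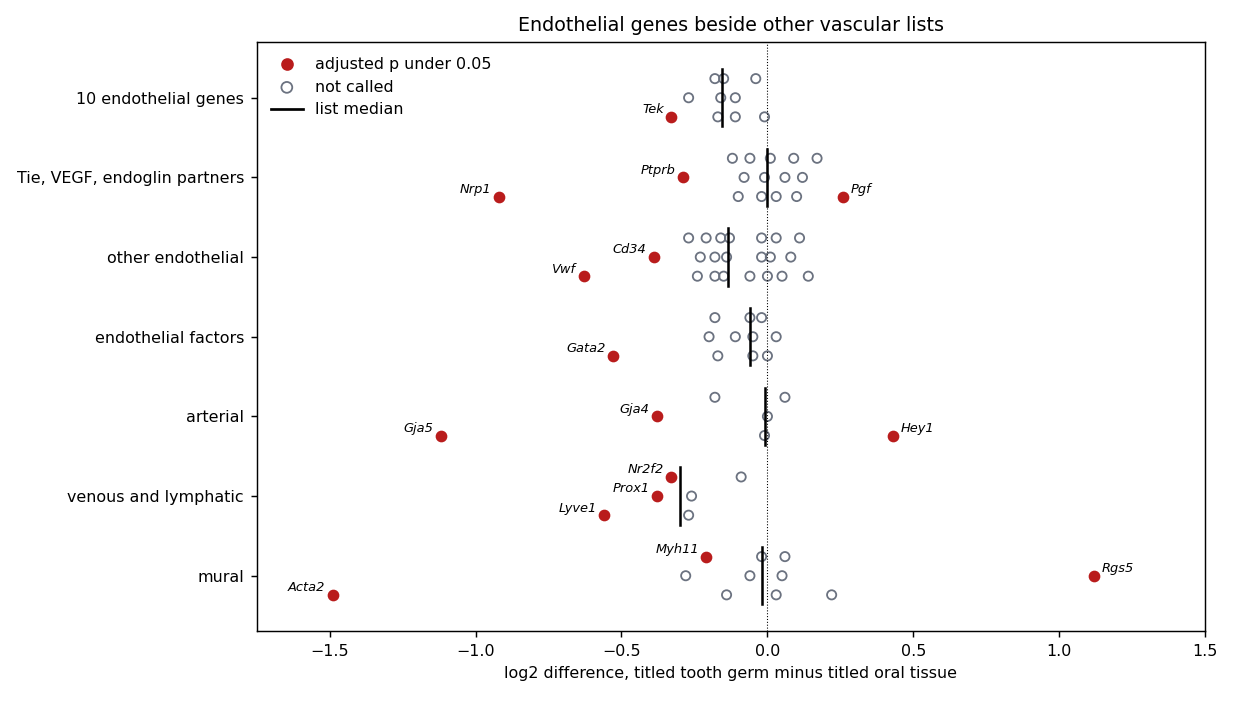
Log2 difference, titled tooth germ minus titled oral tissue (x axis), of each gene of the endothelial set and of 6 further vascular lists (rows). Filled red points were called at an adjusted p under 0.05 by limma, open points were not, and bars are list medians. Acta2 (-1.49), Gja5 (-1.12) and Rgs5 (1.12) lie farthest from 0, while the 10 endothelial genes stay between -0.33 and -0.01.

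Taking these 6 vascular lists as 73 genes, 12 were lower, 3 were higher and 58 were not called. Of the 73 differences 51 were below 0, with a median of -0.06. Among all genes 3.42% were lower, 2.39% were higher and 48.2% had a difference below 0. These lists were written from general knowledge of vessels with earlier results in view.

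Markers of other cells moved with the same groups. The counts below stand against 3.42% of all genes called lower, 2.39% called higher, and 5.02% called lower with litter as a block. The mean signal of the 10 endothelial genes lay between 8.61 and 8.67 in titled tooth germ and between 8.75 and 8.85 in titled oral tissue. Macrophage genes, 7 of 11 lower, had a mean signal of 7.76 to 7.84 in titled tooth germ and 7.99 to 8.19 in titled oral tissue. Skeletal muscle genes lay at 9.47 to 9.75 in titled tooth germ and 10.90 to 11.59 in titled oral tissue. Neuronal genes, 3 of 8 lower and 5 of 8 with litter as a block, lay at 7.35 to 7.47 in titled tooth germ and 7.84 to 8.51 in titled oral tissue. Surface epithelium went the other way, with 6 of 9 higher and 1 lower, at 10.52 to 10.64 in titled tooth germ and 9.89 to 10.06 in titled oral tissue. Of 7 red cell and platelet genes 1 was lower, Pf4 of platelets and macrophages (-0.50, adjusted p = 0.00574), and the means overlapped, at 7.97 to 8.25 in titled tooth germ and 8.06 to 8.30 in titled oral tissue. The part of these cells in the endothelial differences was not tested. By list mean, oral tissue library 2 was the lowest of its group for muscle, macrophage and neuronal genes. The mean of the 10 endothelial genes was 8.75, 8.77 and 8.85 in oral tissue libraries 1, 2 and 3. Library 1 was thus lowest by a small margin, and Flt1, Eng, Esam, Sox17 and Sox18 were not lowest there.

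**Figure D4:**
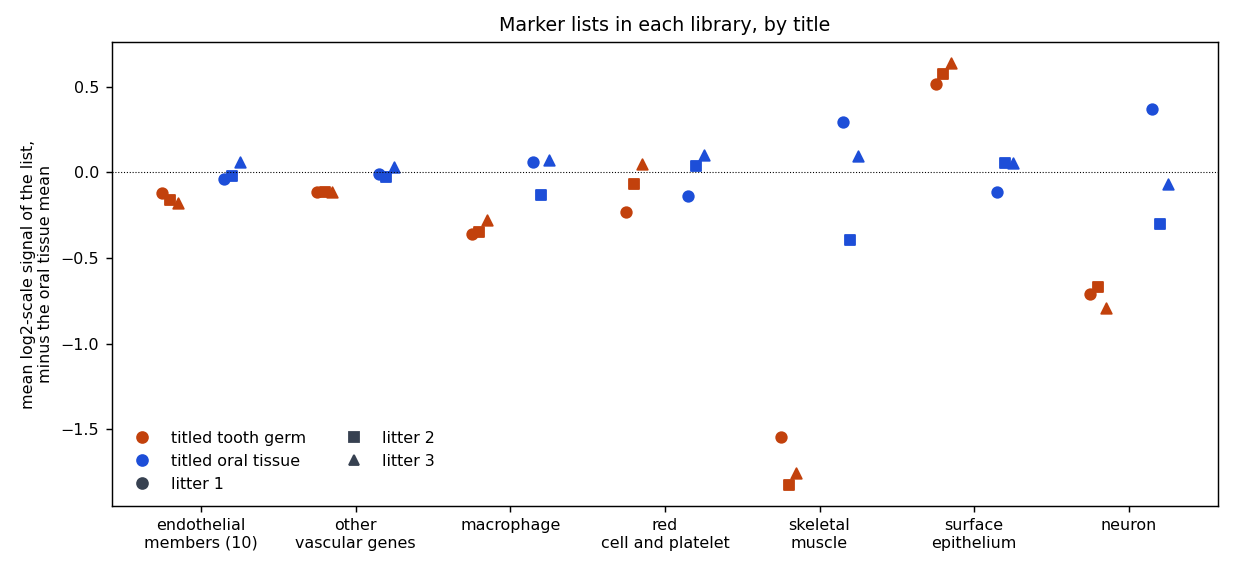
Mean log2-scale signal of each marker list in each library, minus the mean of the titled oral tissue libraries (y axis), for titled tooth germ (orange, left) and titled oral tissue (blue, right), with marker shapes for the 3 litters. The 10 endothelial genes and the 73 other vascular genes differ less than the skeletal muscle, neuronal and surface epithelium lists.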

How the data were processed

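Signals of 6 Illumina bead arrays, 3 titled tooth germ and 3 titled oral tissue, were read from the deposited table of log2-scale values per probe. Per the submitters' processing notes, the authors used lumi 2.8.0; the transformation and background correction used are not given in the sources used here, so the scale may be a plain log2 or a variance-stabilised form close to it, and differences of dim genes may be understated. The sorted columns differed by at most 0.000827, so the deposited values were already quantile normalized, and they ran from 6.61 to 14.88. Of 45281 probes, 34885 had 1 gene symbol in the platform annotation, 18 had several and 10378 had none. The brightest probe over the 6 arrays was kept for each of 19057 genes.

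Differences between the groups as titled were fitted in R 4.3.3 with limma 3.58.1 (lmFit, eBayes with a mean-variance trend, 4 residual degrees of freedom), with Benjamini-Hochberg adjustment over all 19057 genes. Litter was left out of the fit and tried as a block (2 residual degrees of freedom). Per the labels, libraries of 1 number share a litter: deviations from group means correlated at 0.413, 0.233 and 0.266 in same-numbered pairs, and between -0.267 and -0.0724 in the others, over 9528 genes above the median. Pooled libraries of separate litters were the replicates.

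The members and lists were chosen with earlier results of these data known. Named genes are all 10 members, every called gene of each vascular list, the 6 genes of nearest course, the label checks, and further pathway genes chosen after their values were seen; lists of other cell types are given by their counts. Counts cover the list genes that could be matched to a probe. The fit was tested before use on simulated data without litter effects, with differences of 0.5, 1 and 2 in genes above the median. It recovered 73.1%, 92.5% and 100% of these. Differences as small as those of the 10 endothelial genes were not simulated. Alternatives were litter as a block or random effect, normalization repeated or by median, a filter on dim genes, mean or single probes, other eBayes settings, array weights, other thresholds, and leaving out libraries or litters. Promoter sequences are from RefSeq (GRCm38.p6).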

Additional observations from a re-analysis of the deposited data

How the results depend on the processing

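With litter as a replicate block, as the labels' pairing by litter implies, the count of endothelial genes called lower was 2. Of all genes 957 were then called lower, against 651 without the block, and 736 were called higher, against 456. Of the 10 endothelial genes the block changed the call of Emcn and of no other. Array weights also gave 2 endothelial genes called lower, with 713 of all genes lower and 505 higher. At an adjusted p under 0.01 the count was 0, with 383 of all genes lower, 218 higher, 7 other vascular genes lower and 1 higher. Leaving out a library or a litter gave 0 to 1 endothelial genes lower, 5 to 9 with groups that did not overlap (15.1% to 22.4% of all genes in those smaller groups), a median of -0.17 to -0.12, 354 to 663 of all genes lower, 195 to 368 higher, 6 to 13 other vascular genes lower and 1 to 3 higher. Other vascular genes called lower came to 6 without both libraries of litter 1 and also without those of litter 3, and the count called higher was 1 without oral tissue library 1. Genes called higher came to 282 without tooth germ library 2, and to 284 and 298 without oral tissue libraries 1 and 3. Without litter 3, 410 of all genes were lower and 258 higher, and without litter 2, 268 were higher. The direction turned for Tie1 without oral tissue library 3 (0.02) or litter 3 (0.02), and for Pecam1 in the same settings (0.00 and 0.01). Leaving out single libraries gave -0.09 to 0.02 for Tie1, -0.04 to 0.02 for Kdr and -0.21 to 0.00 for Pecam1. For Kdr it turned with the mean of its probes (0.00), without tooth germ library 2 (0.02), oral tissue libraries 2 or 3 (0.01 each) or litter 2 (0.04). The cause of these changes was not tested. The planned offset for linear values was not run, since the table is on a log scale. Kdr lay under the median of all values, so the filter on dim genes gave no value for it. The other 7 endothelial genes kept a difference below 0 in all 21 alternatives. The litter fits, eBayes settings and thresholds among these cannot change the difference itself, so they could not turn its direction. Repeated or median normalization, the filter and single probes also left the printed differences of these genes unchanged. The columns were already normalized, and the brightest probe was kept in those settings. Only the mean of probes, array weights and leaving out libraries or litters moved a printed difference. Tek was called in 12 of the 21, with differences from -0.38 to -0.27. With 3 arrays per group, small differences of the other 9 genes may go uncalled.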
